A study of Mus musculus with 2 samples.

Results

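The 587 regions described here were the distal regions of open chromatin with the highest enrichment in mouse granulocyte monocyte progenitors (GMP), committed marrow progenitors of neutrophils and monocytes. They were selected on fold enrichment, the authors' own ratio for each row of the list made from both replicates. Rows sharing at least 1 bp were merged, and a merged region was kept where its highest fold was 18 or more and the summit of that row lay more than 1000 bp away from any protein-coding transcription start site (TSS). They are 587 of 59578 distal regions, and of 75148 regions in all. Another 194 regions at promoters reached the same fold and were not among them.

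ATAC-seq marks open chromatin by the DNA fragments that the transposase Tn5 releases. It was run on 2 biological replicates of 1 group, each with an input of 50000 primary GMP cells from adult male C57BL/6J mice of 5 to 6 weeks with no treatment named. Both replicates carry the same donor label, the labels do not say how the cells were isolated, and sequencers are named for replicate 1 only. With a single group there is no comparison between conditions, and every result below is a description of these region lists without a test. Spread between the replicates may therefore be partly technical. The lists hold no read counts, so depth is unknown and a region absent from a list is one that did not pass its threshold. The labelled cell type was read from promoters: 15 of 16 GMP marker genes had a summit within 1000 bp of a TSS, against 3 of 12 B cell genes, 4 of 14 T and NK cell genes, 1 of 12 hepatocyte genes, 3 of 10 muscle genes and 6 of 10 neural genes. Promoters of lineages close to GMP were open about as often, at 16 of 16 monocyte and macrophage genes and 15 of 18 stem and multipotent progenitor genes, with 9 of 17 erythroid and megakaryocyte genes. The promoters thus do not tell GMP from its nearest neighbours.

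Open regions away from promoters include enhancers, which bind transcription factors, and insulators, which bind CTCF, the zinc finger protein that anchors chromatin loops. In GMP the enhancers are known for PU.1, an ETS family factor encoded by Spi1 that binds a purine-rich site, for C/EBP factors, which drive granulocyte and monocyte genes, and for RUNX factors. Nuclear chromosomes also hold copied sequence: pieces of the mitochondrial genome inserted in the past, processed pseudogenes made from messenger RNA, and duplicated gene families.

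The sequences that the results turn on fall into copied sequence and factor motifs. Bases are those of the GRCm38.p6 assembly from RefSeq, whose chromosomes are those of mm10, on the plus strand. First are the pair of members with the highest fold. In the first, the whole region is shown and capitals mark the bases identical to the mitochondrial genome. In the second, the whole region is shown and capitals mark the run identical to a stretch on chromosome 17 that RefSeq annotates as Rn18s-rs5, a gene copy related to 18S ribosomal RNA.
Region upstream of Abcb11, chr2:69355474-69355730, plus strand: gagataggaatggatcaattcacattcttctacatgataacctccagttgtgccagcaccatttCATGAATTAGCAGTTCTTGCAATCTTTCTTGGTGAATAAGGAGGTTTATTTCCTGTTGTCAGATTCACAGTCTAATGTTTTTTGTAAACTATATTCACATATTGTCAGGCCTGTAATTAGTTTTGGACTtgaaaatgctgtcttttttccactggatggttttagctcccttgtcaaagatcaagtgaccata
Region nearest to Rtl10, chr16:18533127-18533395, plus strand: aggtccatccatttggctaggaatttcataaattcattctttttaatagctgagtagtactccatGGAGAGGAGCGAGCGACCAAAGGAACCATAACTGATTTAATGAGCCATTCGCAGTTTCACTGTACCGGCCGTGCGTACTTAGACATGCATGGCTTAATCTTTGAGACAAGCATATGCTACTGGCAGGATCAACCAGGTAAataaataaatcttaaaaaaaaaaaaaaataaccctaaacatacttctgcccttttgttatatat

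Next are members whose summit carried a motif, chosen as those of high fold for each factor. Capitals mark the match. A PU.1 match was GGAAGTG preceded by a pair of purines, a RUNX match AACCACA, an AP-1 match TGACTCA and the C/EBP palindrome TTGCGCAA, each on either strand. The CTCF match is the core of the CTCF site. The last pair of sequences are the members of highest fold, copied sequence left out, with no exact match to the 24 motifs searched. Both hold the CTCF core with 1 base changed, which the capitals mark there.
PU.1, intron near Cast, chr13:74759336-74759395, plus strand: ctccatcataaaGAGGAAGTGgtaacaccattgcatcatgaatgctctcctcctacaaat
PU.1, intron near Oosp2, chr19:11659324-11659404, plus strand: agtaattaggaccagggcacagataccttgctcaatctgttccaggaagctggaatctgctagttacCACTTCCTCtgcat
RUNX, near Herpud2, chr9:25167612-25167671, plus strand: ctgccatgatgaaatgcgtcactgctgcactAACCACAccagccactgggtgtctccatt
AP-1, near Adgb, chr10:10449235-10449314, plus strand: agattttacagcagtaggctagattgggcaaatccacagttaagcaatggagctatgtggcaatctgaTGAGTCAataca
C/EBP palindrome, near Vcan, chr13:89766126-89766185, plus strand: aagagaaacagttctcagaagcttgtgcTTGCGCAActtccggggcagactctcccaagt
CTCF, near B230118H07Rik, chr2:101472913-101472995, plus strand: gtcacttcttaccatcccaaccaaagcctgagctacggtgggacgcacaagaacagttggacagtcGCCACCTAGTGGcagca
CTCF, near Fam241a, chr3:128337175-128337249, plus strand: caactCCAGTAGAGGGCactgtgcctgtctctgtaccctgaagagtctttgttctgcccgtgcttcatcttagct
No exact match, near Hepacam2, chr6:3447579-3447638, plus strand: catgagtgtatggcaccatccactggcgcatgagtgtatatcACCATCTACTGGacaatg
No exact match, near Sfpq, chr4:127015751-127015810, plus strand: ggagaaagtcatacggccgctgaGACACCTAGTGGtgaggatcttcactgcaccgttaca

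The fold of the members ran from the threshold to 38.56, with a median of 19.22 and an upper quartile of 20.51. Most members thus lay just above the threshold, and a short tail reached higher. The members just inside were regions near Glrx at 18.003, Fcgr2b at 18.007 and Lpgat1 at 18.008. Just outside were regions near Man1a2 at 17.996, Dennd1b at 17.996 and St3gal5 at 17.994. The median fold over all distal regions was 7.902.

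All 587 members overlapped a row in the thresholded list of each replicate, against 61.7% of all distal regions. The series-level list was made from the same reads, so this share is no independent check of the selection. Fold in replicate 1 had a median of 19.17 over the members and ran from 15.24 to 37.91. Replicate 2 gave a median of 16.06 and a range from 12.06 to 32.67. Replicate 1 was higher at 559 members, or 95.2%, and likewise at 33944 of the 36733 distal regions in both lists. Among distal regions with a fold of 14 to 18 the share was 95.6%. The median ratio of replicate 1 to replicate 2 was 1.182 over the members. The same ratio over the 36733 distal regions in both lists had a median of 1.22. Fold of 18 or more was reached by 463 members in replicate 1, by 96 in replicate 2 and by 87 in both. By rank, 433 members overlapped the 587 highest distal regions of replicate 1 and 420 overlapped those of replicate 2.

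**Figure D1:**
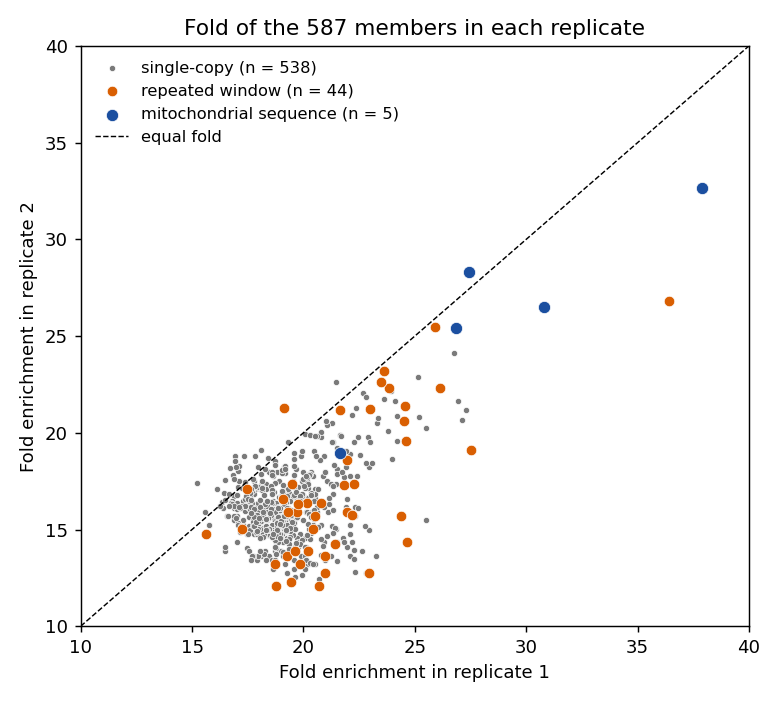
Fold enrichment of each of the 587 members in the list of replicate 1 (x axis) and of replicate 2 (y axis). Each point is a region, coloured by whether it holds mitochondrial sequence, has a mostly repeated window or is single-copy, and the dashed line marks equal fold. The points lie mainly below the line, and 4 of the 5 mitochondrial members stand at the upper end.

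Across the 587 members, Pearson's r between the folds of the replicates was 0.54. Over the 538 members with neither a mostly repeated window nor mitochondrial sequence, defined below, r was 0.36. These are correlations across regions of the same genome in 1 pair of libraries, over a range narrowed by the selection. Among the largest ratios were those of regions near Car12, a carbonic anhydrase gene, at 22.82 in replicate 1 and 12.74 in replicate 2, and near Cxxc5 at 22.33 and 12.80. The smallest ratios belonged to regions near Itgb8, an integrin gene, at 15.24 and 17.38, near Hacd4 at 16.91 and 18.81, and near Riok2 at 19.14 and 21.27.

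Mitochondrial sequence was found in 5 members, or 0.852%, where 0.0352% of all distal regions (21 regions) held an alignment of at least 100 bp to the mitochondrial genome. These regions lie on nuclear chromosomes, and 4 of them were among the 10 members with the highest fold. The highest of all, chr2:69355474-69355730, lies 12.98 kb upstream of Abcb11, the bile salt export pump gene of the liver. Its fold was 37.91 in replicate 1 and 32.67 in replicate 2, and 129 of its 257 bp were identical to the mitochondrial genome. Both replicates placed it above every single-copy member.

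The other mitochondrial members were less alike to the mitochondrial genome but longer in alignment. A region in a gene desert at chr5:60042655-60043145 aligned over 383 bp with 97.9% identity and stood at 27.44 in replicate 1 and 28.29 in replicate 2. The region chr6:9889881-9890222 aligned over 311 bp with 95.8% identity, at 30.79 and 26.49. The region chr12:97061375-97061851 aligned over 365 bp with 99.7% identity, at 26.86 and 25.41. Last was chr10:96077477-96077943, with 373 bp at 97.6% identity and folds of 21.66 and 18.94. These 4 lay 58.93 kb or more from the nearest protein-coding TSS. They are not independent cases: the members on chromosomes 6 and 12 share 110 identical bp. The chromosome 5 member shares 265 identical bp with a mitochondrial region of the list, chr2:22587313-22590229, whose fold was 5.27. The lists give no reads, and the part that the mitochondrial genome itself has in these folds was not tested.

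The second highest member, chr16:18533127-18533395, had a fold of 36.41 in replicate 1 and 26.82 in replicate 2. It holds 140 bp, at chr16:18533192-18533331, identical to the opposite strand of chr17:39846352-39846491, at the start of Rn18s-rs5. Genes of ribosomal RNA stand in long tandem arrays. The stretch on chromosome 17 overlapped no region of the list.

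Copied sequence was common beyond these regions. The window of 101 bp around a summit holds 71 overlapping words of 31 bases, and a window was called repeated where most of those words occur more than once on the 21 chromosomes. By this measure 47 members, or 8.01%, were repeated, against 2.05% of all distal regions. In the lower bins of fold the share was 1.79% under 6, 1.96% from 6 to 10, 2.17% from 10 to 14 and 2.41% from 14 to 18. It was highest at the very top: 7 of the 10 members with the highest fold were repeated, and 8 of the 10 were repeated or mitochondrial. Among the 20 highest, 11 were repeated or mitochondrial. Over all members the number was 49, which leaves 538 members called single-copy here. The name is loose: no word occurred more than once at 491 of them, while the other 47 had up to 33 repeated words of the 71, and diverged copies were not counted. Over the 491 alone, r between the replicates was 0.33.

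**Figure D2:**
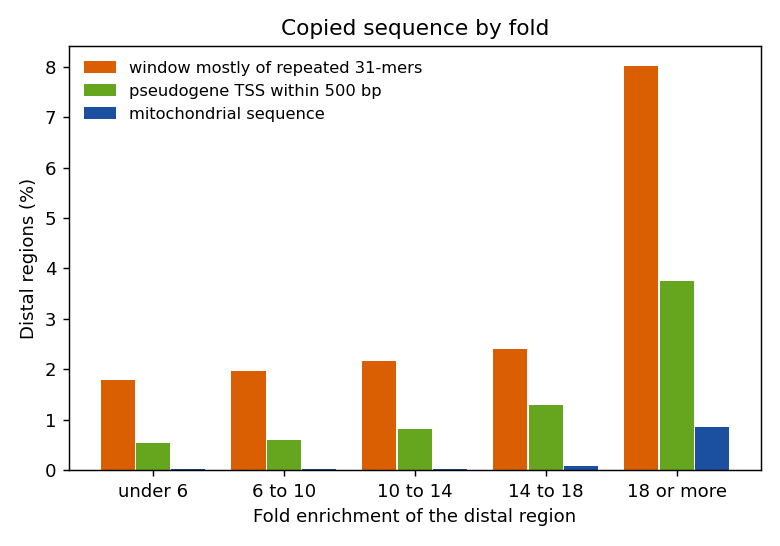
Share of distal regions (y axis, percent) with a mostly repeated window, with a pseudogene TSS within 500 bp of the summit, or with mitochondrial sequence, by bin of fold enrichment (x axis). The highest bin is the 587 members, at 8.01%, 3.75% and 0.852%; the bin from 14 to 18 stands at 2.41%, 1.30% and 0.0850%.

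For 39 of the 47 repeated members the words recur at a locus outside the region, and for the other 8 they recur only within it. The closest copy overlapped another region of the list in 36 of the 39, had a fold of 18 or more in 12, and lay on the same chromosome in 21. In 22 members the closest copy held all 71 words, in identical runs of 110 to 2396 bp. Some of these members had further copies, up to 13 other loci at the member near Zfp600. The longest run joins a member at chr17:17178756-17179419, with a fold of 25.99, to the promoter of the zinc finger gene Zfp97, with 25.46. Members nearest to Gm4070 and to Gvin1, a gene of the interferon-inducible very large GTPase family, share 566 identical bp on chromosome 7, with folds of 22.49 and 20.80. The member at chr9:56223628-56223946, in an intron near Peak1 and beside the annotated miRNA gene Gm24270, shares 63 of its 71 words with a stretch in Zc3h7a on chromosome 16 and had folds of 27.53 and 19.12. A family on chromosome 8 gave 4 of the 16 highest members, of 29.44, 29.05, 26.25 and 25.92, near Gm15319, Gm31371, 4930467E23Rik and Gm21119.

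Several members shared sequence with a stretch near the TSS of a known gene, at another place in the genome. Promoter here means only at most 1000 bp from a TSS. The shared stretch can lie downstream of the TSS, as at Pcna by 321 bp. For 11 repeated members the closest copy was at most 1000 bp from a TSS of a protein-coding gene, and each of those promoters was itself in the list. Fold was higher at the member than at the promoter copy in 10 of the 11, a direction that the selection of members at 18 or more favours. Pcna-ps2, a processed pseudogene of Pcna, the sliding clamp of DNA replication, had a fold of 19.79, while the Pcna promoter that shares 178 bp with it had 10.98. Impdh2-ps had 18.35 and the promoter of Impdh2, an enzyme of guanine nucleotide synthesis, 13.49, with 169 bp in common. Gm5552 had 21.53 and the promoter of Sat1, which acetylates polyamines, 8.40. A member on chromosome X near Cldn34c2 had 21.67 and the promoter of Bid, a pro-apoptotic member of the Bcl2 family, 6.73. In an intron 11.68 kb downstream of a TSS of Batf a member had 18.36, and its copy at Zfp36l2, which encodes an RNA-binding protein, had 4.28.

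Some of these copies are annotated genes themselves. A pseudogene TSS lay within 500 bp of 22 members, or 3.75%, against 0.703% of all distal regions, and within 500 bp of 11 of the 538 single-copy members, or 2.04%. A TSS of any gene that is not protein-coding lay within 1000 bp of 47 members, or 8.01%, against 5.10%, and of 5.95% of the single-copy members. No label or header tells how reads with more than 1 possible place were treated, and the part of such reads in the fold of the repeated members was not tested.

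Members lay farther from genes than distal regions at large. Their median distance to the nearest protein-coding TSS was 33.39 kb, against 21.51 kb over all distal regions, with quartiles of 15.45 and 90.61 kb against 8.283 and 55.73 kb. In all 136 members, or 23.2%, were over 100 kb away, against 13.6%. Distal regions with a fold of 14 to 18 came close to the members, with a median of 30.19 kb and 19.1% over 100 kb away. The 538 single-copy members had a median of 32.37 kb and 22.3% over 100 kb away, and among the 49 repeated or mitochondrial members 32.7% were over 100 kb away. At 309 members, or 52.6%, the summit was outside every annotated gene, against 41.0%, while 242 lay in introns and 36 in exons. The share outside genes was 51.5% of the single-copy members and 65.3% of the 49 others. By bin of fold the share outside genes was 36.2% under 6, 40.9% from 6 to 10, 44.1% from 10 to 14 and 47.9% from 14 to 18, so that the members continued the order of the bins. Farthest from a gene were a pair of regions in the desert around G6pd2 on chromosome 5, at 1765.84 and 1812.01 kb, and a region 1804.57 kb from Cntnap5b on chromosome 1.

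**Figure D3:**
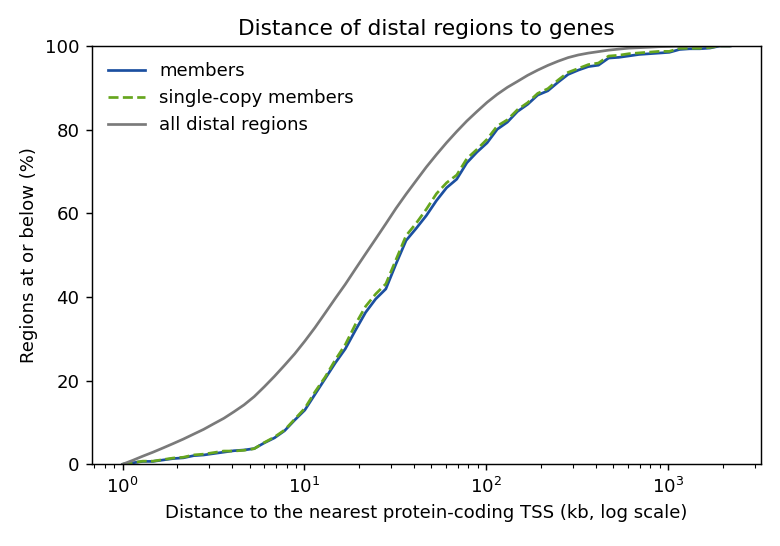
Cumulative share of regions (y axis, percent) by distance from summit to the nearest protein-coding TSS (x axis, kb, log scale), for all members, single-copy members and all distal regions. The curves of both sets of members run to the right of that of all distal regions, with medians of 33.39, 32.37 and 21.51 kb.

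The members were spread over the chromosomes. They made up from 0.518% of the distal regions on chromosome 15 to 1.26% on chromosome 13 of the autosomes, and 2.82% on chromosome X, where there were 37 of 1310. Chromosome X is present as a single copy in these male cells. Per length the X chromosome was not rich in members, with 0.216 per Mb against 0.115 to 0.316 on the autosomes. None of the 13 distal regions on chromosome Y was a member. Neighbouring members were 10 kb apart or less in 3 cases and 100 kb or less in 32. No such count is given for other distal regions, so these numbers describe the members only.

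Width is a measure from the same reads as fold. The members had a median width of 589 bp and a range of 227 to 1200 bp. The median was 431 bp over all distal regions and 597 bp over those with a fold of 14 to 18. Of the members 36.8% were merged from more than 1 row, against 26.4% of all distal regions and 37.3% of those with a fold of 14 to 18. None was 1500 bp or wider, a width rare among all distal regions too, at 0.143%. The widest was a region 187.21 kb downstream of a TSS of Gpd2, a mitochondrial glycerol phosphate dehydrogenase gene, at chr2:57424615-57425814. Regions near Ptgdr, a prostaglandin receptor gene, and near Dph5 followed with 1164 and 1148 bp. Base composition was like that of other distal regions. The median GC content in 201 bp around the summit was 49.25% for members and for all distal regions. A CpG ratio (observed over expected) above 0.6 was seen at 55 members, or 9.37%, against 6.03%, and at 35 single-copy members, or 6.51%. The summit base was repeat-masked at 61 members, or 10.4%, against 10.3%.

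PU.1 matches were far more frequent at summits than beside them, at members as at all distal regions. They stood within 50 bp of the summit at 67 members, or 11.4%, against 9.10% of all distal regions. In the windows 500 bp to either side the shares were 0.511% for members and 0.822% for all distal regions. Over the bins of fold the share went from 8.07% under 6 through 8.60% and 10.4% to 12.1% from 14 to 18, before the 11.4% of the members and the 12.3% of the single-copy members. At a fold of 20 or more the share was 7.69%, or 15 of 195 regions, below the 9.10% of all distal regions. That count is too small to show a turn of direction. Of the 195 regions 28, or 14.4%, had a repeated window, and the share without them is not given here. The example near Oosp2 has its PU.1 match at the edge of the printed stretch, and its fold was 23.35 in replicate 1 and 20.79 in replicate 2. In the intron near Cast, the gene of the calpain inhibitor calpastatin, the match is close to the summit and the folds were 23.29 and 20.52.

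A scan of every word of 7 bases at the single-copy summits, made after the data had been seen and with no motif given, put AGGAAGT (on the other strand ACTTCCT) first by the ratio of summits to flanks. It stood at 132 of 538 single-copy members, or 24.5%, and in 1.58% of their flanking windows. Over all distal regions the shares were 18.2% and 2.64%. The words next in order, CACTTCC and CTTCCTC, overlap it, at 97 and 119 of the 538 single-copy members. This word holds the GGAA core that ETS family proteins bind and overlaps the PU.1 match. ACCACAG, which overlaps the RUNX word, was also among the first 12, at 10.6% of single-copy members and 7.29% of all distal regions.

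**Figure D4:**
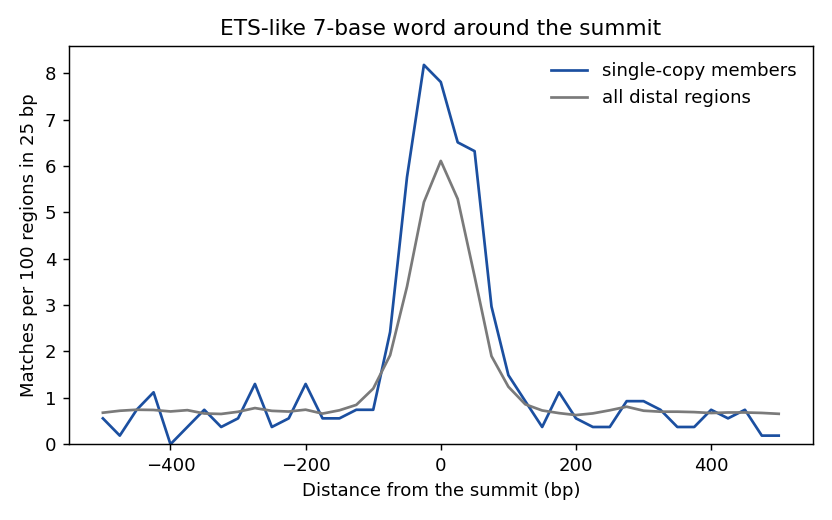
Matches of the leading word of 7 bases, on either strand, per 100 regions in bins of 25 bp (y axis) by distance from the summit (x axis, bp), for 538 single-copy members and 59578 distal regions. Both curves peak around the summit, at 8.18 for the members in the bin at -25 bp and 6.11 for all distal regions at 0 bp.

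CTCF matches were fewer at members than at distal regions at large, at 23 members, or 3.92%, against 6.45%. The share did not follow fold throughout: it was 4.67% under 6, 7.42% from 6 to 10, 6.81% from 10 to 14 and 5.24% from 14 to 18. At members the matches had a median distance of 17.5 bp from the summit, with 9 on the plus strand and 14 on the minus strand. No neighbouring pair of members with a match lay within 1 Mb, but 23 members over the genome are too few to read this as a trait. No member flank held a match, and over all distal regions 0.0898% of flanks did. With 25 bp windows the shares were 2.21% and 4.86%, and with 1 mismatch allowed 13.8% and 17.6%. With windows of 100 bp they came closer, at 6.13% of members and 6.93% of all distal regions.

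RUNX matches were found at 48 members, or 8.18%, against 7.26% of all distal regions and 2.64% of the members' flanks. AP-1, the Fos and Jun site, stood at 32 members, or 5.45%, against 5.31%. The loose C/EBP site, TTACNNAA or TTGCNNAA, was at 104 members, or 17.7%, against 9558 of the 59578 distal regions, with 9.97% in the members' flanks. The full palindrome was rare, at 4 members, or 0.681%, against 0.181%. The E-box CAGCTG was found at 6.81% against 7.98%, the GATA word AGATAAG at 0.681% against 1.24%, and the IRF direct repeat at 1.19% against 1.75%. Each of the remaining motifs matched 17 members or fewer. Shares were above those of all distal regions for NF-kB (2.9% against 2.16%), KLF/SP (1.36% against 0.901%) and ETS (1.19% against 0.473%). So were those for NRF1 (4 members, 0.681% against 0.149%), CRE (3 members, 0.511% against 0.269%) and REST (2 members, 0.341% against 0.124%). ZNF143 (2 members, 0.341% against 0.0537%) and RFX (1 member, 0.17% against 0.107%) were above as well. Counts as small as these are too few to tell the shares from the background. They were below for MYB (1.7% against 1.81%), NFE2/MAF (0.341% against 0.609%) and a stricter CTCF core (0.511% against 1.58%). The YY1, NFI, TCF7/LEF1 and HNF4 motifs matched none. Those 4 are rare over all distal regions as well, at 0.206%, 0.0235%, 0.441% and 0.106%, so that 0 matches among 587 regions stands near the background. PU.1 and RUNX matches stood together at 3 members, or 0.511%, against 0.504% of all distal regions. PU.1 and loose C/EBP matches stood together at 13, or 2.21%, against 0.947% of all distal regions and 2.15% of those with a fold of 14 to 18. At 296 members, or 50.4%, none of the motifs was found, against 49.8%, which says only that these letters are not in these windows. Of the 296, 40 held the CTCF core with 1 mismatch.

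**Figure D5:**
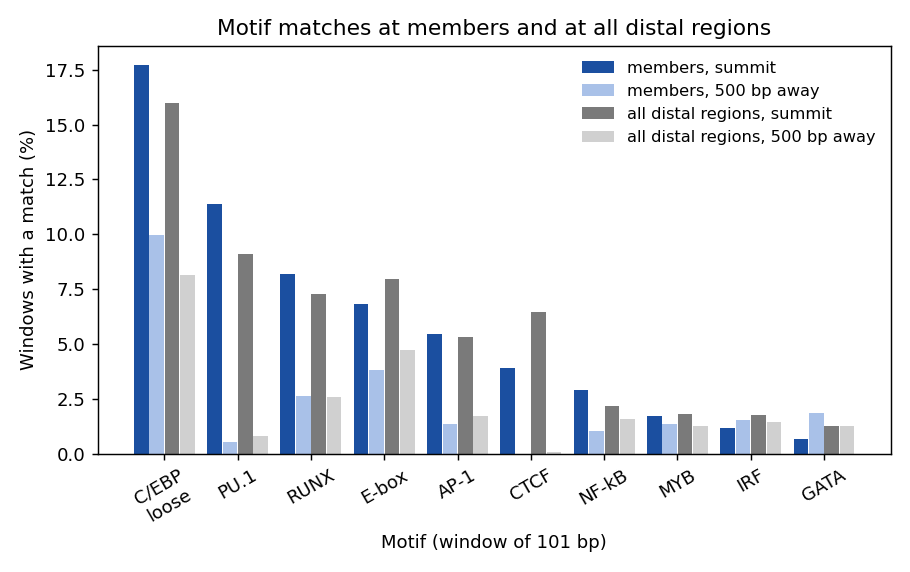
Share of windows of 101 bp with a match (y axis, percent) for 10 of the motifs (x axis), at the summits of the 587 members and of all distal regions and 500 bp to either side. Summit shares exceed the flanks for PU.1, RUNX, AP-1 and CTCF in both sets, and the CTCF share is 3.92% at members and 6.45% at all distal regions.

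By nearest TSS the members belonged to 548 genes, 36 of which had 2 or more. Thbs1, Pde4d and Mreg had 3 each. Thbs1 encodes the secreted protein thrombospondin, and its members lay 134.66 to 197.80 kb upstream with folds of 18.27, 18.74 and 19.16. Those of Pde4d, a cyclic AMP phosphodiesterase gene, stood at 18.05, 18.49 and 19.61, all in introns. Mreg had 18.06, 18.35 and 18.59.

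Members at listed genes were few, and the counts are small. Of 1205 distal regions at 185 listed genes of blood, control lineages and chromosome architecture, 5 were members, or 0.415%, while the members were 0.985% of all distal regions. At the 16 GMP markers none of 111 distal regions was a member, and none of 52 at the granule genes, numbers at which the share over all distal regions would give about 1 member or fewer. The same was seen away from GMP: none of 135 distal regions at stem and multipotent progenitor genes was a member, none of 44 at erythroid and megakaryocyte genes, and none of the 10 to 52 at each list of B cell, T and NK cell, hepatocyte, muscle, neural and chromosome architecture genes. Of the GMP markers, Cd34, a surface protein of progenitors, came nearest with a fold of 16.63 (15.41 in replicate 1 and 15.61 in replicate 2). Gfi1, a repressor required for granulocytes, followed at 16.05 (15.85 and 14.61). Over all these lists without a member, the highest was a region at the hepatocyte gene Cyp7a1, at 17.98. At Mpo, the myeloperoxidase gene, the highest distal fold was 5.67, and at Elane, the neutrophil elastase gene, 4.77. Among 519 distal regions of 28 myeloid transcription factor genes 3 were members, or 0.578%. All of these counts go by the nearest TSS, so a member close to a listed gene can be counted at an unlisted neighbour. The member at chr19:11659116-11659570, counted at Oosp2, lies close to a region of the GMP marker and granule gene Ms4a3, chr19:11646046-11646648.

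The 5 members at listed genes were single-copy. Mrc1, the macrophage mannose receptor, had an intronic region 66.18 kb downstream, at chr2:14295141-14295787 with folds of 20.77 in replicate 1 and 19.80 in replicate 2 and a RUNX match. Csf2ra, the receptor chain for GM-CSF, had a region 16.50 kb upstream at 20.17 and 17.52. The remaining 3 were nearest to transcription factor genes. For Id2, an inhibitor of E proteins, a region 419.79 kb upstream with PU.1 and E-box matches stood at 16.92 and 18.53. For Maf, a macrophage factor, a region 430.62 kb from the TSS had 19.84 and 16.48. For Klf4, a factor of monocytes, a region 91.10 kb away with a loose C/EBP match had 18.98 and 15.43. The nearest TSS need not be the gene that a region controls, above all at such distances.

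Copied sequence aside, the highest members lay near genes of varied function. The top single-copy region, chr6:3447408-3447900, lies 39.82 kb downstream of the TSS of Hepacam2, with folds of 26.74 and 24.12. It was followed by regions near Zfp677 (27.28 and 21.16), Sfpq, a splicing factor gene (26.94 and 21.62), and Erich1 (27.13 and 20.68), whose window holds a match to the REST motif. A few other members of high fold near genes of myeloid cells were picked out after their values were seen, and are examples only. The fixed lists were no richer in members than all distal regions at 0.985%. The shares were 0.787% at monocyte and macrophage genes, 0.578% at myeloid transcription factor genes, and none of 111 regions at GMP markers, counted by nearest TSS. Ctsh, a lysosomal cathepsin, had a region 11.06 kb upstream at 22.36 in replicate 1 and 21.30 in replicate 2. Hk3, a hexokinase of myeloid cells, had one 18.84 kb upstream at 21.49 and 17.86. Cd302, a C-type lectin, had one 13.97 kb upstream at 20.41 and 17.75.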

How the data were processed

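ATAC-seq of 2 GMP replicates was used as lists of regions. Fold enrichment (a ratio to a background that no source used here defines), q values as -log10, scores and summit positions are the authors' values, deposited per row in mm10 coordinates. No header or label names the aligner or the peak caller. Scores were not used further. Rows of the conservative list of both replicates were merged at an overlap of 1 bp, and distal regions lay over 1000 bp from the TSS of every protein-coding transcript in GENCODE vM21. Each region took the highest fold it overlapped in the thresholded list of each replicate. Motifs (24) were searched within 50 bp of the summit and 500 bp to either side. Copies of 31-base words were counted on 21 chromosomes, with code tested on simulated sequence, and mitochondrial sequence was found with BLASTN 2.17.0 (E value 1e-10, at least 100 bp). Python 3.11.15 with pandas 2.3.3, numpy 2.4.6 and numba 0.67.0 was used. No test was run, because there is 1 group and the members were chosen on fold. Members, gene lists and motifs were chosen with earlier results of these data known, and the scan of 7-base words, the copy counts and the mitochondrial search were added after the data had been seen. Named regions were the 12 with the highest fold, 3 on either side of the threshold, the 3 widest, the 3 largest and 3 smallest ratios between replicates and those at listed genes; 1 of these is not reported here. Alternatives were other thresholds, TSS rules, lists, single replicates and motif settings.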

Additional observations from a re-analysis of the deposited data

How the results depend on the processing

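Thresholds of 16 and 20 gave 1708 and 195 regions. Leaving out either replicate gave 96 to 673 regions, 3.12% to 5.20% with a CTCF match, 10.4% to 11.1% with a PU.1 match, 51.4% to 57.3% outside genes, 7.29% to 9.36% masked, 8.32% to 16.7% repeated and median widths of 536.5 to 539 bp; the lower number of regions came from replicate 2. At fold 20 or more, CTCF matches were at 2.56%, PU.1 matches at 7.69% (below the 9.10% of all distal regions), masked summits at 7.69% and repeated windows at 14.4%; at 16 or more, repeated windows were at 4.68%. Counting TSSs of every gene type left 6.03% repeated. Median width was 598.5 bp at fold 16, 574 bp at 20, 593 bp beyond 2500 bp from a TSS, 585 bp beyond TSSs of every gene type and 591.5 bp over single-copy members. CTCF shares were 2.21% with 25 bp windows, 6.13% with 100 bp, 0.511% with a stricter core (1.58% of all distal regions) and 13.8% with 1 mismatch, lower than over all distal regions each time. The other list of both replicates gave the same 587 regions in number and the same shares. All members were in both replicates' lists under each alternative tried, but so were 96.7% of all distal regions with the ranked or the pseudoreplicated lists. The PU.1 and repeated-window alternatives and the single-copy set were chosen after seeing the data. No paired analysis was possible because there is 1 group and no test. Without read counts, the precision that depth gives each fold is unknown.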
